A study of Mus musculus with 14 samples.

Results

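The 39 genes described here encode the proteins that copy DNA in S phase: factors that license replication origins, the MCM helicase, firing factors, polymerases and primase, clamp proteins, Okazaki fragment enzymes, enzymes that make deoxynucleotides, a histone chaperone subunit and the regulator E2f1. They were listed by name and role, with no threshold on a measured value but with earlier results of these data known, and all 39 were found among the 18193 genes with a probe set of 1 gene symbol. The 39 genes had 86 probe sets, and each gene is given by its brightest probe set over the 14 arrays. RNA came from cells sorted by FACS from hGFAP eGFP mice aged 8 weeks, and all groups carry this transgene, in which a human GFAP promoter drives eGFP. From the subependymal zone (SEZ), the germinal layer of the adult lateral ventricle, 4 groups were sorted: SEZ_GFPprom for GFP and prominin (Prom1) together (n = 4), SEZ_GFP for GFP (n = 2), SEZ_Prom for prominin (n = 2) and SEZ_CD24 for the CD24 antigen (n = 2). DIEC_GFP holds GFP-positive cells of the diencephalon (n = 4). The labels call the first 3 SEZ sorts neural stem cells, SEZ_CD24 ependymal cells and DIEC_GFP astrocytes. They do not say how many animals gave each array or whether SEZ_GFP and SEZ_Prom were depleted of the other antigen, so p-values measure the spread between the arrays deposited as biological replicates.

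In G1, the origin recognition complex, Cdc6 and Cdt1 load the MCM helicase on DNA. In S phase, the kinase Cdc7 with Dbf4 and the firing factors turn the loaded helicase into a moving one, which polymerases follow while a sliding clamp holds them on the template. Many of the genes are transcribed as cells enter S phase, under E2F factors, and are low in resting cells. In the adult SEZ most divisions are those of transit amplifying cells and of migrating neuroblasts, while stem cells divide rarely.

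The sorts differed in the cells they held. Of the 8 ependymal markers, 7 were highest in SEZ_GFPprom, and their summed linear intensity was 11887 to 21003 there, 3423 to 6862 in DIEC_GFP and 269 to 496 in SEZ_CD24, although SEZ_CD24 carries the ependymal label. In SEZ_CD24, 1 ependymal marker stood at an intensity of 10 or less on both arrays. All 10 neuroblast markers, among them the sorted antigen's gene Cd24a, were highest in SEZ_CD24, with sums of 16033 to 27223 there, 15176 to 17503 in SEZ_GFP, 5394 to 7273 in SEZ_GFPprom, 2289 to 5062 in SEZ_Prom and 1118 to 1589 in DIEC_GFP. Microglia markers summed to 12655 to 25408 in SEZ_CD24. The astrocyte markers summed to 19301 to 35155 in DIEC_GFP, whose oligodendrocyte markers (29711 to 40409) and oligodendrocyte progenitor markers (10652 to 14044) were also high, and SEZ_Prom had oligodendrocyte markers at 31543 to 32410. Astrocyte sums overlapped DIEC_GFP in SEZ_Prom (18798 to 22071), SEZ_GFPprom (17543 to 19682) and SEZ_GFP (15584 to 19783), and were 4757 to 13090 in SEZ_CD24. By group mean, 8 of the 10 astrocyte markers were highest in DIEC_GFP. The group names are therefore used in place of the labelled cell types.

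The replication genes were lowest in DIEC_GFP and highest in SEZ_GFP. SEZ_GFP had the highest group mean for 31 of the 39 genes, against 16.7% of all genes with their highest mean in SEZ_GFP. DIEC_GFP had the lowest for 36 of the 39, and the share of all genes lowest in DIEC_GFP was not counted. SEZ_CD24 was highest for 7 genes (Orc1, Pola1, Pola2, Prim2, Fen1, Rrm1 and E2f1, against 19.1% of all genes) and SEZ_GFPprom for 1 (Gins4, against 24.4%). The SEZ_CD24 share was near that of all genes and depended on the probe set. By the next brightest probe set only E2f1 of the 7 was highest in SEZ_CD24. That of Prim2 read 7.33 there against 7.49 in SEZ_GFP. The median log2 intensity of the 39 genes was 5.78 to 5.91 on the DIEC_GFP arrays, 6.94 and 7.20 in SEZ_Prom, 7.47 to 8.38 in SEZ_GFPprom, 7.73 and 8.46 in SEZ_CD24 and 8.67 and 8.74 in SEZ_GFP. No SEZ array overlapped the DIEC_GFP arrays in this median, while SEZ_CD24 and SEZ_GFPprom overlapped each other. Group means ran in the order SEZ_GFP, SEZ_GFPprom, SEZ_Prom, DIEC_GFP for 30 of the 39 genes (76.9%), an order found in 7.23% of all genes. That order is the one of the medians above, from the same values, and it leaves out SEZ_CD24. Its share therefore describes those values and is no separate result. In sorted populations, fewer cells of a type and less RNA per cell cannot be told apart.

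**Figure D1:**
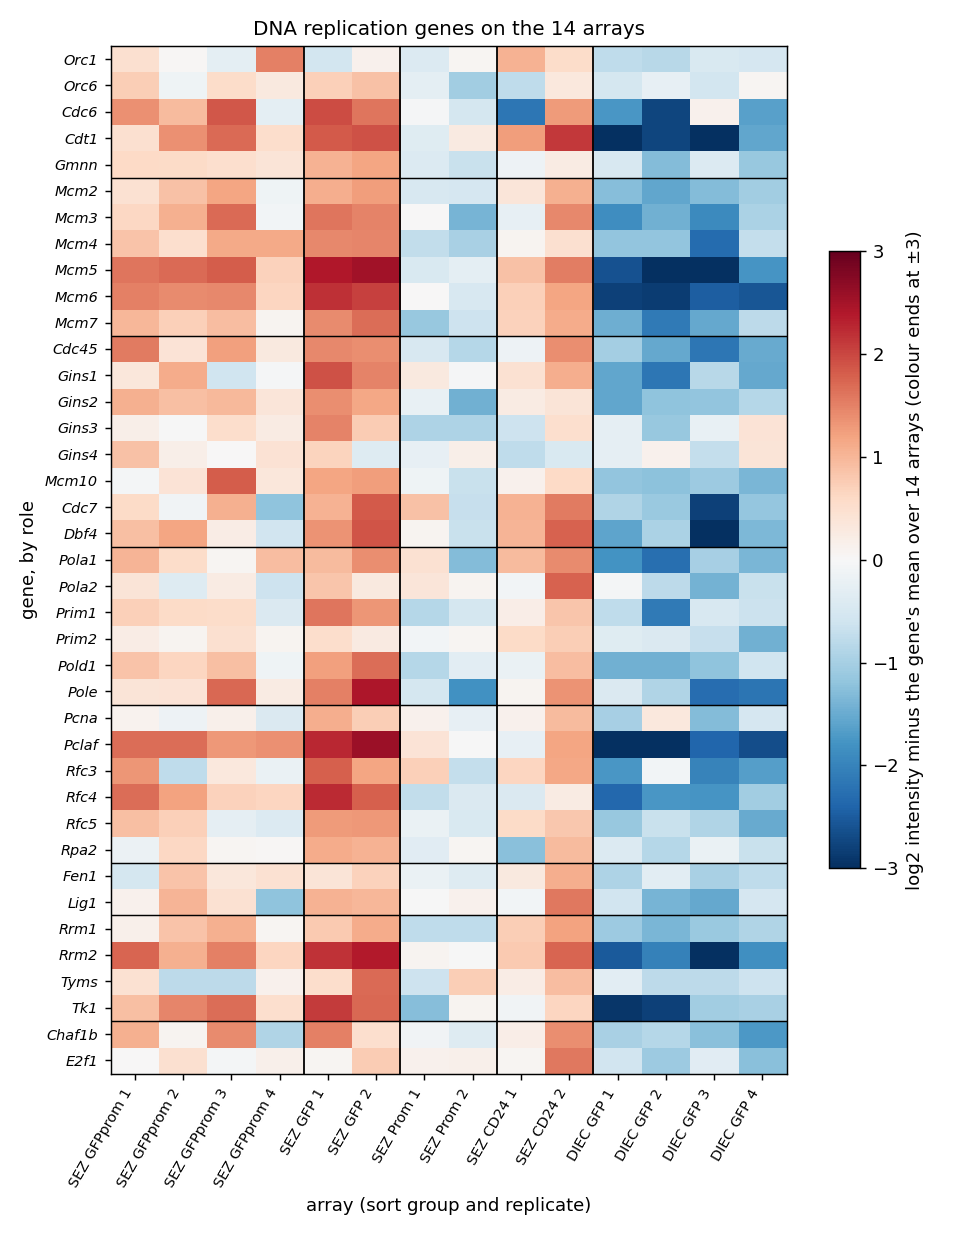
Heat map of the 39 replication genes (rows, by role, separated by lines) on the 14 arrays (columns, by sort group). Colour is log2 intensity minus the gene's own mean over the 14 arrays, red above and blue below, ending at ±3. The 4 DIEC_GFP columns are blue in nearly every row, the SEZ_GFP columns are the reddest, and the second SEZ_CD24 array is redder than the first.

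Differences between the 5 groups were tested by limma's moderated F test, with p adjusted over all 18193 genes. It passed at an adjusted p under 0.05 for 30 of the 39 genes, against 25.8% of all genes. All 6 MCM subunits passed, as did 7 of 8 firing factors, 5 of 6 polymerase and primase genes, 4 of 6 clamp and single-strand binding genes, 3 of 4 nucleotide enzymes, 2 of 5 licensing genes, 1 of 2 Okazaki fragment enzymes, and Chaf1b and E2f1. The 9 genes that did not pass were Orc1, Orc6, Cdc6, Gins4, Pola2, Pcna, Rpa2, Lig1 and Tyms.

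Among the licensing genes, Cdt1, which brings the MCM helicase to origins, and Gmnn, the geminin that binds and blocks Cdt1, passed the F test. Cdt1 had log2 intensities of 5.25, 6.13, 5.73 and 7.32 in DIEC_GFP, 9.36, 10.24, 10.58 and 9.40 in SEZ_GFPprom, 10.71 and 10.78 in SEZ_GFP, 8.52 and 9.14 in SEZ_Prom and 10.14 and 11 in SEZ_CD24. Every SEZ array lay above every DIEC_GFP array. Cdt1 was higher than in DIEC_GFP by 4.64 in SEZ_GFP (24.9-fold, SE 0.53, limma adjusted p = 0.000249), by 4.47 in SEZ_CD24, by 3.79 in SEZ_GFPprom and by 2.72 in SEZ_Prom (adjusted p = 0.0101, and 0.0586 to 0.108 without either SEZ_Prom array). Gmnn read 7.41, 6.58, 7.48 and 6.74 in DIEC_GFP, 8.48, 8.45, 8.38 and 8.27 in SEZ_GFPprom, 8.93 and 9.07 in SEZ_GFP, 7.48 and 7.22 in SEZ_Prom and 7.73 and 8.13 in SEZ_CD24. SEZ_Prom overlapped DIEC_GFP for this gene, and the other SEZ sorts stood above it. Gmnn rose by 1.95 in SEZ_GFP (3.86-fold, SE 0.26, adjusted p = 0.000626), by 1.34 in SEZ_GFPprom and by 0.88 in SEZ_CD24, the last with an adjusted p of 0.0355 that was 0.0503 to 0.253 without any 1 of 6 arrays (both SEZ_CD24, both SEZ_GFP and DIEC_GFP replicates 2 and 4).

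The origin binding proteins Orc1, Orc6 and Cdc6 did not pass the F test. Orc1, the largest subunit of the origin recognition complex, had log2 intensities of 5.21, 5.13, 5.52 and 5.46 in DIEC_GFP, 6.46, 6.0, 5.67 and 7.47 in SEZ_GFPprom, 5.43 and 6.11 in SEZ_GFP, 5.55 and 6.04 in SEZ_Prom and 7.02 and 6.51 in SEZ_CD24. Its highest array was in SEZ_GFPprom, and SEZ_GFP overlapped DIEC_GFP. The pairwise tests called Orc1 higher in SEZ_CD24 (by 1.43, adjusted p = 0.0345) and in SEZ_GFPprom (by 1.07, adjusted p = 0.049). The first call ended without either SEZ_CD24 array or DIEC_GFP replicate 1 or 2 (adjusted p = 0.0662 to 0.222), and the second without any array other than SEZ_GFPprom replicate 3 (0.0567 to 0.117). Cdc6, which helps to load MCM, read 3.58, 2.58, 5.46 and 3.70 in DIEC_GFP, 6.71, 6.27, 7.20 and 5.04 in SEZ_GFPprom, 7.29 and 6.94 in SEZ_GFP, 5.29 and 4.81 in SEZ_Prom and 3.17 and 6.61 in SEZ_CD24. The arrays of DIEC_GFP and of SEZ_CD24 were widely spread, from near background to well above it. Cdc6 was 3.28 higher in SEZ_GFP (SE 0.92, adjusted p = 0.037) and 2.47 higher in SEZ_GFPprom (SE 0.75, adjusted p = 0.0421). The adjusted p of these differences was 0.0515 to 0.2 without any 1 of 8 arrays and 0.057 to 0.118 without any 1 of 10, including both SEZ_GFP arrays and DIEC_GFP replicates 1, 2 and 4 in each case. Orc6, the smallest subunit of the complex, read 6.69, 6.99, 6.67 and 7.29 in DIEC_GFP, 7.97, 7.10, 7.79 and 7.51 in SEZ_GFPprom, 7.95 and 8.10 in SEZ_GFP, 6.94 and 6.19 in SEZ_Prom and 6.46 and 7.55 in SEZ_CD24. Only SEZ_GFP stood clear of DIEC_GFP, by 1.12 (95% interval 0.37 to 1.87, adjusted p = 0.0545), and no comparison with DIEC_GFP passed for Orc6.

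The 6 subunits of the MCM helicase, the ring that unwinds DNA ahead of the fork, were each highest in SEZ_GFP and lowest in DIEC_GFP, and all 6 were higher than in DIEC_GFP in SEZ_GFP, SEZ_GFPprom and SEZ_CD24, against 5.61%, 10.1% and 6.9% of all genes. The median difference over the 6 was 3.06 in SEZ_GFP, 2.31 in SEZ_GFPprom, 2.26 in SEZ_CD24 and 0.82 in SEZ_Prom. Mcm6 had the smallest F test p of the 39 genes (adjusted p = 5.52e-06). Its log2 intensities were 4.81, 4.75, 5.13 and 5.04 in DIEC_GFP, 9.13, 9.02, 9.05 and 8.26 in SEZ_GFPprom, 9.80 and 9.66 in SEZ_GFP, 7.63 and 7.12 in SEZ_Prom and 8.32 and 8.78 in SEZ_CD24. DIEC_GFP, SEZ_Prom and SEZ_GFP each stood apart from the other groups, and only SEZ_GFPprom and SEZ_CD24 overlapped. The difference from DIEC_GFP was 4.80 in SEZ_GFP (27.8-fold, SE 0.27, adjusted p = 6.48e-06), 3.93 in SEZ_GFPprom (15.3-fold), 3.62 in SEZ_CD24 (12.3-fold) and 2.44 in SEZ_Prom (5.43-fold, adjusted p = 0.000422).

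Mcm5 read 6.48, 5.58, 4.58 and 7.31 in DIEC_GFP, 10.69, 10.78, 10.90 and 9.78 in SEZ_GFPprom, 11.49 and 11.60 in SEZ_GFP, 8.64 and 8.79 in SEZ_Prom and 9.96 and 10.62 in SEZ_CD24. Its DIEC_GFP arrays spread over more than the SEZ arrays of any sort, and stayed below all of them. Mcm5 rose by 5.55 in SEZ_GFP (46.9-fold, SE 0.59, adjusted p = 0.00019), by 4.55 in SEZ_GFPprom, by 4.30 in SEZ_CD24 and by 2.73 in SEZ_Prom (adjusted p = 0.0175, and 0.122 to 0.125 without either SEZ_Prom array). Mcm2, Mcm3, Mcm4 and Mcm7 rose by 2.47 to 3.08 in SEZ_GFP, while their differences of 0.48 to 0.84 in SEZ_Prom did not pass. The CD24 calls of Mcm3 and Mcm4 ended without SEZ_CD24 replicate 2 (adjusted p = 0.269 and 0.0936). For Mcm7 the brightest probe set has sequence shared between transcripts, and its probe set without shared sequence was 1.25 higher in SEZ_GFPprom than in DIEC_GFP without passing (adjusted p = 0.139 over all probe sets), against 2.16 for the brightest.

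**Figure D2:**
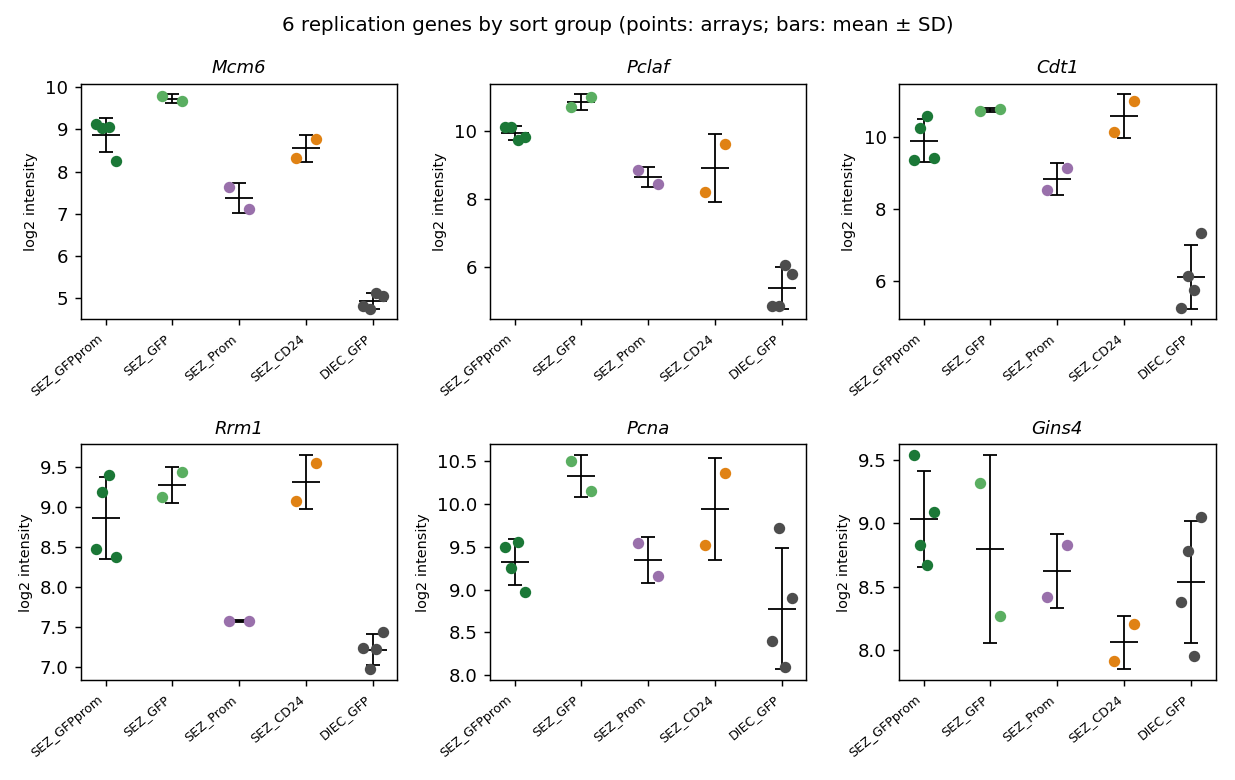
Log2 intensity of 6 replication genes in the 5 sort groups, each gene on its own axis. Points are arrays and bars the mean ± SD. Mcm6, Pclaf and Cdt1 lie above DIEC_GFP in every SEZ array, Rrm1 in SEZ_Prom lies just above DIEC_GFP, and every SEZ sort overlaps DIEC_GFP for Gins4.

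Promoter sequence was set beside these values because E2F factors bind sites of known letters at many replication genes. RefSeq promoters (GRCm38.p6, from 250 bases before to 50 after each start site) were given for 32 of the 39 genes, in 37 windows. Gmnn, Mcm4, Gins1, Gins2, Gins4, Prim2 and Pole were not matched. The letters TTTCCCGC, TTTCGCGC, TTTGCCGC and TTTGGCGC, searched on both strands, occurred in 13 of the 37 windows (35.1%), against 744 of all 32851 windows (2.26%). The letters CCAAT occurred in 19 windows (51.4%, against 37.4% of all) and TTTGAA or TTCGAA in 9 (24.3%, against 19.2%). Stretches from 4 promoters are shown 5′ to 3′ on the gene's strand with the E2F letters, on either strand, in capitals. Mcm6 and Mcm5 are shown as the MCM genes with the smallest F test p, Pola1 as a polymerase gene high in SEZ_CD24, and Orc1 as a gene with a match that did not pass the F test.
Mcm6: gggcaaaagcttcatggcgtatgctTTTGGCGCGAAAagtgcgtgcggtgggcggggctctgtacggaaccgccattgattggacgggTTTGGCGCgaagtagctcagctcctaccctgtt
Mcm5: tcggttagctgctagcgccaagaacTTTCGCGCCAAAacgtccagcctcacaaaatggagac
Pola1: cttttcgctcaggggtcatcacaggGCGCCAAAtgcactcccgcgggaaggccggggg
Orc1: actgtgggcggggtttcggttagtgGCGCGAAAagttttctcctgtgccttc
The Mcm6 stretch is on the minus strand at chr1:128359720-128359840, the Mcm5 stretch on the plus strand at chr8:75109331-75109392, the Pola1 stretch on the minus strand at chrX:93632261-93632318 and the Orc1 stretch on the plus strand at chr4:108579402-108579453, all upstream of the annotated start site. In Mcm6 and in Mcm5 a match on one strand overlaps a match on the other, and Mcm6 has another match nearer to its start site. The 13 genes with a match had a median difference from DIEC_GFP of 3.03 in SEZ_GFP (range 0.44 to 5.55) and the 19 matched genes without one a median of 2.34 (1.12 to 5.29). These ranges overlap over most of their length, and a match is a description of letters, with binding not measured here.

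Of the 8 firing factors, 7 passed the F test. Gins2, a subunit of the GINS complex that activates the MCM ring together with Cdc45, had log2 intensities of 5.17, 5.52, 5.55 and 5.86 in DIEC_GFP, 7.79, 7.64, 7.69 and 7.08 in SEZ_GFPprom, 8.11 and 7.89 in SEZ_GFP, 6.51 and 5.29 in SEZ_Prom and 6.97 and 7.11 in SEZ_CD24. SEZ_Prom overlapped DIEC_GFP, with 1 array inside its range and 1 above, and every array of the other SEZ sorts was above both. Gins2 rose by 2.47 in SEZ_GFP (5.56-fold, SE 0.32, adjusted p = 0.000563), by 2.02 in SEZ_GFPprom and by 1.51 in SEZ_CD24 (adjusted p = 0.00684, and 0.0629 without SEZ_CD24 replicate 2). Cdc45 read 5.61, 5.09, 4.46 and 5.13 in DIEC_GFP, 8.19, 7.03, 7.85 and 6.93 in SEZ_GFPprom, 8.08 and 8.03 in SEZ_GFP, 6.15 and 5.78 in SEZ_Prom and 6.48 and 8.02 in SEZ_CD24. All SEZ arrays of Cdc45 were above DIEC_GFP, those of SEZ_Prom by least. Cdc45 rose by 2.98 in SEZ_GFP (SE 0.46, adjusted p = 0.00165), by 2.43 in SEZ_GFPprom and by 2.17 in SEZ_CD24, the last ending without SEZ_CD24 replicate 2 (adjusted p = 0.116).

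Gins1, the partner subunit, was higher than in DIEC_GFP in all 4 SEZ sorts by its brightest probe set. It rose by 3.22 in SEZ_GFP, 2.29 in SEZ_CD24, 1.73 in SEZ_GFPprom and 1.66 in SEZ_Prom. The SEZ_Prom difference of Gins1 was near the threshold (adjusted p = 0.0481) and missed it without any 1 of 11 arrays (0.0554 to 0.289), the exceptions being DIEC_GFP replicate 3 and SEZ_GFPprom replicates 2 and 3. Mcm10, which joins the helicase to polymerase alpha, rose by 2.44 in SEZ_GFP, 1.84 in SEZ_GFPprom and 1.57 in SEZ_CD24. Cdc7 and Dbf4, the kinase and its activator, rose by 2.94 and 3.40 in SEZ_GFP and by 2.80 and 3.19 in SEZ_CD24. In SEZ_GFPprom Dbf4 rose by 2.22, and the Cdc7 difference of 1.58 did not pass (adjusted p = 0.0703). The SEZ_GFP call of Cdc7 ended without either SEZ_GFP array (0.0561 to 0.166), and that of Dbf4 without SEZ_GFP replicate 2 (0.066). Of these, the SEZ_CD24 calls of Mcm10 and Cdc7 ended without either SEZ_CD24 array (0.0557 to 0.164 and 0.0539 to 0.117), and those of Gins1 and Dbf4 without replicate 2 (0.0581 and 0.0579).

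The other GINS subunits departed from this pattern. Gins3 was 1.43 higher than in DIEC_GFP in SEZ_GFP (adjusted p = 0.0374, and 0.0513 to 0.316 without any 1 of 9 arrays, both SEZ_GFP and both SEZ_Prom arrays among them), and its mean was lowest in SEZ_Prom. Gins4 had log2 intensities of 8.38, 8.78, 7.95 and 9.05 in DIEC_GFP, 9.54, 8.83, 8.67 and 9.09 in SEZ_GFPprom, 9.32 and 8.27 in SEZ_GFP, 8.42 and 8.83 in SEZ_Prom and 7.91 and 8.21 in SEZ_CD24. Every SEZ sort overlapped DIEC_GFP for Gins4, and the lowest mean was that of SEZ_CD24. Its F test gave an adjusted p of 0.309, and the difference of SEZ_GFP from DIEC_GFP was 0.25 with a 95% interval of -0.54 to 1.05.

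Of the polymerase and primase genes, Pold1 and Pola1 had the smallest F test p. Pold1, the catalytic subunit of the lagging strand polymerase delta, read 6.54, 6.54, 6.78 and 7.38 in DIEC_GFP, 8.83, 8.63, 8.89 and 7.86 in SEZ_GFPprom, 9.21 and 9.65 in SEZ_GFP, 7.12 and 7.66 in SEZ_Prom and 7.79 and 8.92 in SEZ_CD24. SEZ_Prom overlapped DIEC_GFP and the other SEZ sorts lay above it. Pold1 rose by 2.62 in SEZ_GFP (6.16-fold, SE 0.38, adjusted p = 0.00117), by 1.74 in SEZ_GFPprom and by 1.55 in SEZ_CD24 (adjusted p = 0.0164, and 0.214 without SEZ_CD24 replicate 2). The brightest Pold1 probe set is of a shared-sequence type. Its other probe set was 2.06 higher in SEZ_GFP (limma adjusted p = 0.0348 over all probe sets). That probe set did not pass in SEZ_GFPprom (1.38, adjusted p = 0.0608) or SEZ_CD24 (1.06, adjusted p = 0.261). Pola1, the catalytic subunit of polymerase alpha, which extends primers, read 5.52, 5.04, 6.32 and 5.95 in DIEC_GFP, 8.34, 7.85, 7.38 and 8.24 in SEZ_GFPprom, 8.25 and 8.70 in SEZ_GFP, 7.76 and 6.0 in SEZ_Prom and 8.27 and 8.73 in SEZ_CD24. The SEZ_CD24 and SEZ_GFP arrays covered nearly the same range. Its rise was 2.79 in SEZ_CD24 (6.9-fold, SE 0.47, adjusted p = 0.002), 2.76 in SEZ_GFP (adjusted p = 0.00287, and 0.0543 without SEZ_GFP replicate 2) and 2.24 in SEZ_GFPprom.

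Pola2 and Prim2, accessory subunits of the polymerase alpha and primase complex, had their highest means in SEZ_CD24 like Pola1, by the brightest probe set of each. Pola2 read 5.81, 5.09, 4.46 and 5.21 in DIEC_GFP, 6.25, 5.49, 6.11 and 5.25 in SEZ_GFPprom, 6.71 and 6.17 in SEZ_GFP, 6.23 and 5.95 in SEZ_Prom and 5.78 and 7.64 in SEZ_CD24. Its highest value was that of SEZ_CD24 replicate 2, while replicate 1 fell within DIEC_GFP. Pola2 did not pass the F test, and its only call against DIEC_GFP, in SEZ_CD24 (by 1.57, adjusted p = 0.0494), held without SEZ_CD24 replicate 1 or DIEC_GFP replicate 1 and ended without any other array (0.053 to 0.509). Prim2 read 6.43, 6.36, 6.11 and 5.36 in DIEC_GFP, 7.03, 6.88, 7.27 and 6.89 in SEZ_GFPprom, 7.33 and 7.06 in SEZ_GFP, 6.71 and 6.85 in SEZ_Prom and 7.38 and 7.53 in SEZ_CD24. All SEZ arrays of Prim2 were above DIEC_GFP, by the smallest margin in SEZ_Prom. Prim2 rose by 1.39 in SEZ_CD24 (SE 0.27, adjusted p = 0.00412), by 1.13 in SEZ_GFP (adjusted p = 0.017, and 0.083 to 0.155 without either SEZ_GFP array) and by 0.96 in SEZ_GFPprom. Prim1, the catalytic primase subunit, and Pole, the leading strand polymerase, rose by 2.47 and 3.43 in SEZ_GFP, 1.53 and 2.18 in SEZ_CD24 and 1.36 and 2.15 in SEZ_GFPprom. The SEZ_CD24 call of Prim1 ended without either SEZ_CD24 or either SEZ_GFP array (0.05 to 0.248) and that of Pole without SEZ_CD24 replicate 2 or DIEC_GFP replicate 3 or 4 (0.0738 to 0.297). The SEZ_GFPprom call of Prim1 ended without SEZ_GFPprom replicate 1, 2 or 3 (0.0567 to 0.064), and the SEZ_GFP call of Pole without SEZ_GFP replicate 2 (0.0806).

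Among the clamp genes, Pclaf, a small protein that binds the PCNA clamp, and Rfc4, a subunit of the clamp loader, differed most clearly. Pclaf had log2 intensities of 4.86, 4.86, 6.04 and 5.78 in DIEC_GFP, 10.11, 10.10, 9.72 and 9.80 in SEZ_GFPprom, 10.68 and 11 in SEZ_GFP, 8.84 and 8.42 in SEZ_Prom and 8.19 and 9.61 in SEZ_CD24. The gap between DIEC_GFP and the nearest SEZ array was wider than the spread within any group. Pclaf rose by 5.46 in SEZ_GFP (43.9-fold, SE 0.41, adjusted p = 3.68e-05), by 4.55 in SEZ_GFPprom, by 3.52 in SEZ_CD24 and by 3.25 in SEZ_Prom (9.48-fold, adjusted p = 0.00116). Rfc4 read 4.70, 5.32, 5.29 and 6.02 in DIEC_GFP, 8.72, 8.27, 7.74 and 7.69 in SEZ_GFPprom, 9.29 and 8.84 in SEZ_GFP, 6.32 and 6.63 in SEZ_Prom and 6.63 and 7.31 in SEZ_CD24. For Rfc4 the SEZ_CD24 arrays lay with SEZ_Prom and below SEZ_GFPprom. Its rise was 3.73 in SEZ_GFP (13.3-fold, SE 0.38, adjusted p = 0.000149), 2.77 in SEZ_GFPprom and 1.64 in SEZ_CD24 (adjusted p = 0.0112, and 0.132 without SEZ_CD24 replicate 2).

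Pcna, the clamp itself, and Rpa2, a subunit of the single-strand binding protein RPA, did not pass the F test. Pcna read 8.40, 9.72, 8.09 and 8.90 in DIEC_GFP, 9.5, 9.25, 9.56 and 8.97 in SEZ_GFPprom, 10.50 and 10.15 in SEZ_GFP, 9.54 and 9.16 in SEZ_Prom and 9.52 and 10.36 in SEZ_CD24. DIEC_GFP replicate 2 was above every SEZ_GFPprom array, and only SEZ_GFP was clear of DIEC_GFP. Pcna rose by 1.55 in SEZ_GFP (2.92-fold, SE 0.40, adjusted p = 0.025, and 0.0579 to 0.186 without either SEZ_GFP array or DIEC_GFP replicate 1), and its differences of 1.17 in SEZ_CD24 and 0.54 in SEZ_GFPprom did not pass (95% intervals 0.29 to 2.04 and -0.17 to 1.25). Rpa2 read 8.23, 7.80, 8.45 and 7.97 in DIEC_GFP, 8.46, 9.26, 8.70 and 8.69 in SEZ_GFPprom, 9.77 and 9.69 in SEZ_GFP, 8.31 and 8.71 in SEZ_Prom and 7.40 and 9.59 in SEZ_CD24. The SEZ_CD24 arrays of Rpa2 were the lowest of all and among the highest. Rpa2 was 1.61 higher than in DIEC_GFP in SEZ_GFP (adjusted p = 0.0403, and 0.0505 to 0.203 without any 1 of 9 arrays, both SEZ_GFP arrays among them). The clamp loader subunits Rfc3 and Rfc5 rose by 2.86 and 2.34 in SEZ_GFP and by 2.27 and 1.75 in SEZ_CD24, and Rfc5 also by 1.28 in SEZ_GFPprom, where the difference of 1.55 for Rfc3 did not pass (adjusted p = 0.0591). The SEZ_GFP call of Rfc3 ended without either SEZ_GFP array (0.067 to 0.111), its SEZ_CD24 call without any 1 of 5 arrays (0.0549 to 0.184) and that of Rfc5 without SEZ_CD24 replicate 2 (0.0644).

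Fen1, the nuclease that trims Okazaki fragments, and Lig1, the ligase that joins them, gave smaller differences. Fen1 read 8.57, 9.16, 8.51 and 8.72 in DIEC_GFP, 8.97, 10.34, 9.83 and 9.94 in SEZ_GFPprom, 9.87 and 10.17 in SEZ_GFP, 9.29 and 9.10 in SEZ_Prom and 9.77 and 10.57 in SEZ_CD24. SEZ_GFPprom replicate 1 fell within DIEC_GFP and the other 3 arrays of that sort stood above it. Fen1 was called higher in SEZ_CD24 (by 1.43, adjusted p = 0.0152), SEZ_GFP (by 1.28, adjusted p = 0.0326) and SEZ_GFPprom (by 1.03, adjusted p = 0.0288). These calls came from a probe set of shared sequence, the other Fen1 probe set differed by 0.33 in SEZ_GFPprom (adjusted p = 0.788 over all probe sets), and they ended without SEZ_CD24 replicate 2 (0.181), any 1 of 4 arrays (0.0657 to 0.252) and any 1 of 6 (0.0504 to 0.0785). Lig1 read 7.86, 7.03, 6.89 and 7.92 in DIEC_GFP, 8.55, 9.45, 8.88 and 7.23 in SEZ_GFPprom, 9.47 and 9.43 in SEZ_GFP, 8.41 and 8.55 in SEZ_Prom and 8.34 and 10 in SEZ_CD24. Only SEZ_GFPprom replicate 4 fell within DIEC_GFP. Lig1 was higher than in DIEC_GFP in SEZ_GFP (by 2.02, SE 0.58, adjusted p = 0.0397, and 0.0502 to 0.21 without any 1 of 8 arrays) and did not pass the F test.

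Of the enzymes that supply deoxynucleotides, Rrm1 and Rrm2, the large and small subunits of ribonucleotide reductase, and Tk1, thymidine kinase, passed the F test. Rrm1 read 7.24, 6.97, 7.22 and 7.44 in DIEC_GFP, 8.48, 9.19, 9.40 and 8.38 in SEZ_GFPprom, 9.12 and 9.44 in SEZ_GFP, 7.58 and 7.57 in SEZ_Prom and 9.07 and 9.55 in SEZ_CD24. SEZ_Prom lay just above DIEC_GFP and well below every other SEZ array. Rrm1 rose by 2.09 in SEZ_CD24 (4.26-fold, SE 0.29, adjusted p = 0.000589), by 2.06 in SEZ_GFP and by 1.65 in SEZ_GFPprom, against 0.36 in SEZ_Prom (95% interval -0.28 to 0.99). Rrm2 read 6.74, 7.25, 3.58 and 7.42 in DIEC_GFP, 11.01, 10.33, 10.78 and 9.91 in SEZ_GFPprom, 11.43 and 11.65 in SEZ_GFP, 9.34 and 9.25 in SEZ_Prom and 10.05 and 11.01 in SEZ_CD24. DIEC_GFP replicate 3 was far below the rest of its group, and all SEZ arrays were above all DIEC_GFP arrays. The rise of Rrm2 was 5.29 in SEZ_GFP (39.1-fold, SE 0.85, adjusted p = 0.00204), 4.28 in SEZ_CD24 (0.0047, and 0.0622 without SEZ_CD24 replicate 2) and 4.26 in SEZ_GFPprom, and the difference of 3.04 in SEZ_Prom did not pass (adjusted p = 0.0577). It did pass in SEZ_Prom without DIEC_GFP replicate 3 or replicate 4, with array weights, without the dimmer genes, with averaged probe sets and without probe sets of shared sequence. The Rrm2 probe set without shared sequence and next in brightness was 3.01 higher in SEZ_Prom (adjusted p = 0.0142 over all probe sets).

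Tk1 rose by 3.83 in SEZ_GFP, by 3.07 in SEZ_GFPprom and by 2.19 in SEZ_CD24, the last with an adjusted p of 0.0292 that was 0.0603 to 0.209 without any 1 of 4 arrays (both SEZ_CD24 and DIEC_GFP replicates 1 and 2). Tyms, thymidylate synthase, was near background: it read 3.46, 3.00, 3.00 and 3.17 in DIEC_GFP, 4.25, 3.00, 3.00 and 3.91 in SEZ_GFPprom, 4.32 and 5.49 in SEZ_GFP, 3.17 and 4.52 in SEZ_Prom and 4.00 and 4.70 in SEZ_CD24. Values this low stand on few rounded steps of intensity, and each of its 4 probe sets was dim. Tyms did not pass the F test, and its only call, in SEZ_GFP (by 1.75, adjusted p = 0.0308), ended without SEZ_GFP replicate 2 or DIEC_GFP replicate 2 or 3 (0.0588 to 0.352).

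Chaf1b, a subunit of the chaperone CAF-1 that places histones behind the fork, read 4.75, 4.86, 4.46 and 4.00 in DIEC_GFP, 6.78, 5.81, 7.14 and 4.81 in SEZ_GFPprom, 7.23 and 6.23 in SEZ_GFP, 5.61 and 5.32 in SEZ_Prom and 5.91 and 7.12 in SEZ_CD24. SEZ_GFPprom replicate 4 fell within DIEC_GFP and all other SEZ arrays were above it. Chaf1b rose by 2.21 in SEZ_GFP (adjusted p = 0.0277), 1.99 in SEZ_CD24 (0.0358) and 1.62 in SEZ_GFPprom (0.0367), calls that ended without any 1 of 4, 6 and 9 arrays (0.0506 to 0.253, 0.0503 to 0.3 and 0.0508 to 0.0931). E2f1, an activator of S phase transcription, read 6.43, 5.91, 6.67 and 5.75 in DIEC_GFP, 7.01, 7.48, 6.94 and 7.16 in SEZ_GFPprom, 7.06 and 7.76 in SEZ_GFP, 7.13 and 7.17 in SEZ_Prom and 7.06 and 8.59 in SEZ_CD24. Every SEZ array of E2f1 was above DIEC_GFP, and the SEZ sorts overlapped each other. E2f1 rose in SEZ_CD24 (by 1.63, adjusted p = 0.0142, and 0.202 without SEZ_CD24 replicate 2), while the differences of 1.22 in SEZ_GFP and 0.96 in both SEZ_GFPprom and SEZ_Prom did not pass (adjusted p = 0.0668, 0.0607 and 0.207).

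The comparison of SEZ_GFPprom with DIEC_GFP sets cells sorted for GFP and prominin from the SEZ against cells sorted for GFP from the diencephalon. All 39 differences were above 0, with a median of 1.73 against 0.08 over all genes. The test called 28 of the 39 higher and 0 lower, against 10.1% of all genes called higher and 7.78% lower, and for 27 of the 39 no SEZ_GFPprom array overlapped DIEC_GFP, against 11.6% of all genes. These values rest on the brightest probe set of each gene. Of the 30 genes with several probe sets, 7 had all of them called higher, and 0 of the 39 had one called lower (limma, adjusted over all probe sets). The calls of 23 genes held with each of the 14 arrays left out in turn. SEZ_GFP against DIEC_GFP gave a median of 2.47 and 34 genes higher (5.61% of all genes), and 37 of the 39 did not overlap DIEC_GFP (15.7% of all genes). Without SEZ_GFP replicate 2 this count fell to 20, all of them higher, and adjusted p for the 14 genes that no longer passed was 0.0543 to 0.352. The 5 genes without a call in SEZ_GFP were Orc1, Orc6, Gins4, Pola2 and E2f1.

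SEZ_CD24 was higher than DIEC_GFP for 31 genes (6.9% of all genes), with a median of 1.74, and 32 of the 39 did not overlap DIEC_GFP (14.4% of all genes). Without SEZ_CD24 replicate 2, 9 genes were left (Cdt1, Mcm2, Mcm5, Mcm6, Mcm7, Pola1, Prim2, Pclaf and Rrm1) and adjusted p for the other 22 was 0.0579 to 0.509. SEZ_Prom was higher for 5 genes (Cdt1, Mcm5, Mcm6, Gins1 and Pclaf, against 3.35% of all genes), with a median of 0.81, and 20 of the 39 did not overlap DIEC_GFP (14.3% of all genes). Without either SEZ_Prom array only Mcm6 and Pclaf passed, and adjusted p for Cdt1, Mcm5 and Gins1 was 0.0586 to 0.289. By the next brightest probe set of these 5 genes, only Mcm6 passed in SEZ_Prom (2.25, limma adjusted p = 0.0199 over all probe sets). Those of Cdt1, Mcm5, Gins1 and Pclaf differed by 1.16, 2.31, 0.20 and 0.74 (adjusted p = 0.404, 0.0695, 0.814 and 0.256), and those of Gins1 and Pclaf were dim. The 4 comparisons with DIEC_GFP share its arrays. The 5 genes called in SEZ_Prom were higher in all 4, a further 21 in 3, 4 in 2 and 7 in 1, and Orc6 and Gins4 in 0, against 0.813%, 2.03%, 3.47%, 9.64% and 84% of all genes in 4, 3, 2, 1 and 0. Beside the rises, the summed transit amplifying markers (6 measured, 5 of them highest in SEZ_GFP) were 431 to 836 in DIEC_GFP, 877 to 1383 in SEZ_Prom, 1292 to 3122 in SEZ_GFPprom, 2855 to 5458 in SEZ_CD24 and 3228 to 3780 in SEZ_GFP, and neuroblast markers moved as given above. The SEZ_CD24 sum of transit amplifying markers leaned on Sox4, with a mean log2 intensity of 11.47 against 6.69 to 8.34 for the others. Their median group mean was 7.72 in SEZ_CD24, 8.23 in SEZ_GFPprom and 8.81 in SEZ_GFP. The log2 ratio of 3' to 5' signal of control transcripts, a sign of RNA quality, was 5.04 to 5.74 in DIEC_GFP, 4.94 to 5.35 in SEZ_CD24, 4.78 to 5.17 in SEZ_GFPprom, 4.63 to 4.82 in SEZ_GFP and 4.58 to 4.67 in SEZ_Prom. With this ratio as a covariate the counts were 22 in SEZ_GFPprom, 26 in SEZ_GFP, 28 in SEZ_CD24 and 3 in SEZ_Prom. The part of the cell markers in the differences was not tested.

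**Figure D3:**
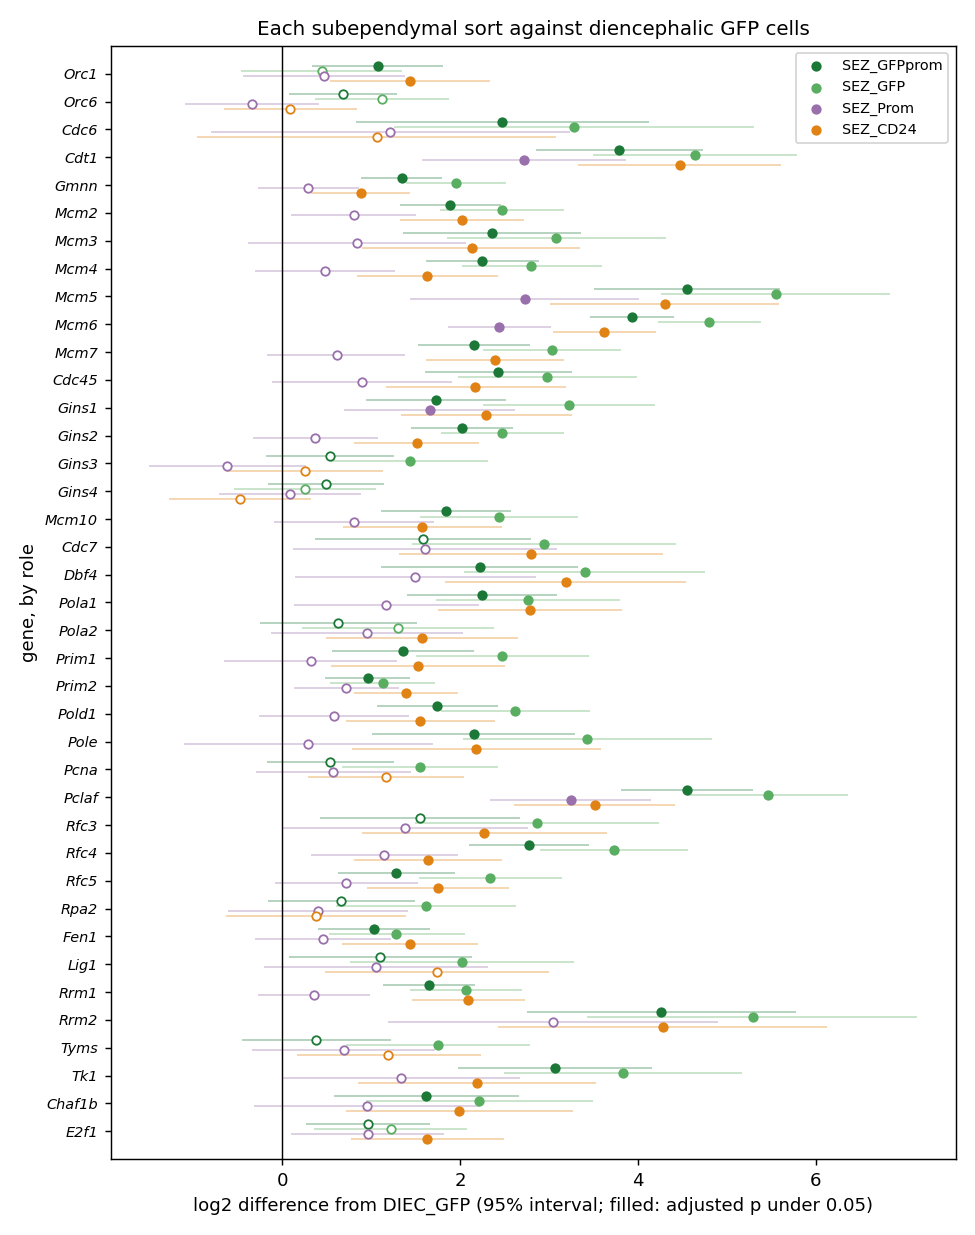
Difference of each of the 39 replication genes from DIEC_GFP (log2, horizontal axis) in the 4 SEZ sorts, with 95% intervals. Filled points passed at an adjusted p under 0.05: 34 in SEZ_GFP, 31 in SEZ_CD24, 28 in SEZ_GFPprom and 5 in SEZ_Prom. Orc6 and Gins4 are filled in no sort.

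**Figure D4:**
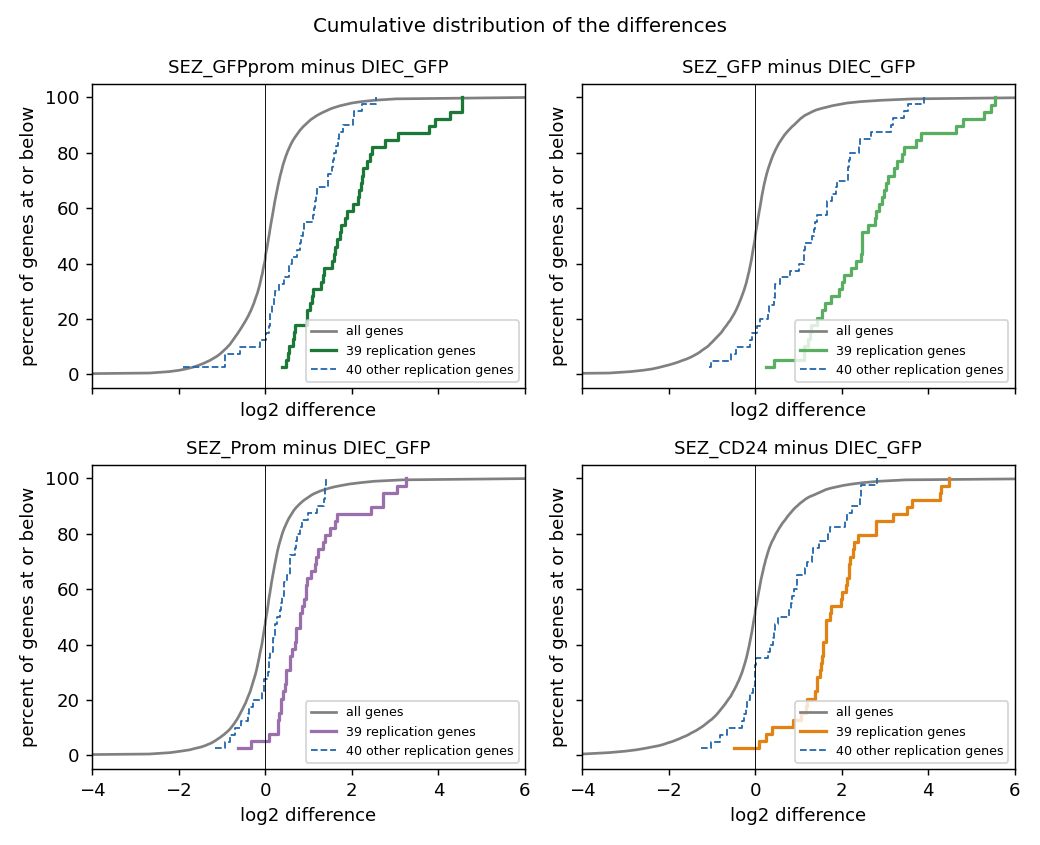
Cumulative distribution of the log2 differences from DIEC_GFP for the 39 replication genes (thick line), 40 other replication genes (dashed) and all 18193 genes (grey), 1 panel per SEZ sort. The 39 genes lie to the right of all genes in each panel, furthest in SEZ_GFP with a median of 2.47 and least in SEZ_Prom with 0.81.

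Between SEZ sorts, all calls among the 39 genes were against SEZ_Prom, which had the lower values. Beside this, 5 of 6 neuron markers were highest in SEZ_Prom, with sums of 9543 to 10461 against 1410 to 1473 in SEZ_GFP, 2131 to 4824 in SEZ_GFPprom, 2336 to 5043 in SEZ_CD24 and 188 to 3407 in DIEC_GFP. Only 1 of the 6 neuron markers passed the F test, and the part of these markers in the differences was not tested. SEZ_GFP was higher than SEZ_Prom for 17 of the 39 genes and lower for 0 (2.81% of all genes were called higher and 4.15% lower), with a median of 1.67. Mcm6 differed by 2.36 (5.13-fold, SE 0.31, adjusted p = 0.0033), Rfc4 by 2.59, Mcm7 by 2.42, Gins2 by 2.10 and Gmnn by 1.65. Only Mcm6 passed with every array left out in turn. The count was 1 without SEZ_GFP replicate 2, when adjusted p for the 16 other genes was 0.0569 to 0.243, and 13 to 15 of the calls ended without SEZ_GFP replicate 1 or either SEZ_Prom array (adjusted p = 0.0501 to 0.277). SEZ_GFPprom was higher than SEZ_Prom for 7 genes (Gmnn, Mcm4, Mcm6, Mcm7, Gins2, Rfc4 and Rrm1, against 4.4% of all genes), with a median of 1.05. Mcm6 differed by 1.49 (2.81-fold, SE 0.27, adjusted p = 0.00615) and Gins2 by 1.65 (adjusted p = 0.00992). Without SEZ_Prom replicate 2, 0 of the 7 passed (0.0735 to 0.215), 5 of their calls ended without SEZ_Prom replicate 1 (0.0844 to 0.213) and 3 without SEZ_GFPprom replicate 1 (0.0542 to 0.0729). For Mcm7 the direction rests on the probe set: the brightest one was 1.55 higher in SEZ_GFPprom, and the one without shared sequence gave a difference of -0.31 (adjusted p = 0.843). SEZ_Prom was lower than SEZ_CD24 for Rrm1, Mcm7 and Mcm6, by differences of -1.74, -1.78 and -1.18 (adjusted p = 0.0169, 0.0304 and 0.0474, while 2.1% of all genes were called lower), with a median of -0.97 over the 39. All 3 calls ended without SEZ_CD24 replicate 2 or either SEZ_Prom array (0.0828 to 0.264), that of Mcm7 also without SEZ_CD24 replicate 1, and that of Mcm6 without any array other than SEZ_GFPprom replicate 4 (0.052 to 0.264). The brightest Mcm6 probe set is also of a shared-sequence type, and the other bright one gave 1.51 for SEZ_GFP and 0.70 for SEZ_GFPprom against SEZ_Prom and -0.80 for SEZ_Prom against SEZ_CD24, none of which passed (adjusted p = 0.123, 0.429 and 0.451), while its differences from DIEC_GFP all passed.

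The sort for GFP and prominin together had lower means than the sort for GFP for most of the 39 genes, but none of them passed. Of the 39 differences of SEZ_GFPprom from SEZ_GFP, 37 were below 0, with a median of -0.85 against 0.07 over all genes, and for 20 genes every SEZ_GFPprom array was below both SEZ_GFP arrays (9.89% of all genes). The limma test called 0 of the 39 (3.17% of all genes were called in either direction), and 12 were lower in SEZ_GFPprom at an unadjusted p under 0.05 (5.49% of all genes). The smallest adjusted p values were those of Gins1 (difference -1.49, 95% interval -2.46 to -0.53, adjusted p = 0.11) and Mcm6 (-0.87, -1.45 to -0.29, adjusted p = 0.122). Gins1 passed without SEZ_GFPprom replicate 2, and Mcm10 without SEZ_GFPprom replicate 3. Between these sorts the ependymal markers summed to 11887 to 21003 against 603 to 1157, and neuroblast markers to 5394 to 7273 against 15176 to 17503, whose part in the differences was not tested.

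None of the 39 genes passed between SEZ_CD24 and either GFP sort. The difference of SEZ_GFPprom minus SEZ_CD24 had a median of -0.12, with 17 genes higher in SEZ_GFPprom and 22 higher in SEZ_CD24. The limma test called 0 of the 39 (13.7% of all genes were called), and 3 were higher in SEZ_GFPprom at an unadjusted p under 0.05 (Rfc4, Gins4 and Pclaf), against 17.4% of all genes. Against SEZ_GFP the median was 0.81 higher in SEZ_GFP, and 0 passed (0.819% of all genes were called), with 11 higher in SEZ_GFP at an unadjusted p under 0.05 (7.02% of all genes), led by Rfc4 (2.09, 95% interval 1.14 to 3.05, adjusted p = 0.0533) and Pclaf (1.94, 0.89 to 2.99, adjusted p = 0.0904). Under some settings that keep both SEZ_CD24 arrays Rfc4 passed. In SEZ_GFP these were array weights, averaged probe sets, no dimmer genes, and DIEC_GFP replicate 1 or 4 left out. In SEZ_GFPprom they were averaged probe sets and DIEC_GFP replicate 4 left out. Pclaf passed in SEZ_GFP with array weights. Leaving out either SEZ_CD24 array leaves 1, which the fit assumes to vary like the other groups. On that assumption Pclaf, Rfc4 and Rpa2 passed against SEZ_GFP, and Pclaf and Rpa2 against SEZ_GFPprom, without replicate 2, and Pola2 and E2f1 against SEZ_GFPprom without replicate 1.

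The arrays of SEZ_CD24 differed from each other in these genes. Replicate 2 was above replicate 1 for 38 of the 39, by a median of 0.70 and at most 3.44 (Cdc6), while 42.6% of all genes were higher in replicate 2. Orc1 was the exception. In SEZ_GFP replicate 2 was the higher for 21 of the 39 (median 0.03), against 36.4% of all genes. In SEZ_Prom it was the higher for 14 (median -0.24), against 45.3% of all genes. Between the SEZ_CD24 arrays the neuroblast markers summed to 16033 and 27223 and the transit amplifying markers to 2855 and 5458, in replicates 1 and 2, and the astrocyte markers to 13090 and 4757. In the same order microglia markers summed to 25408 and 12655 and neuron markers to 5043 and 2336. Oligodendrocyte markers summed to 11223 and 6430, and oligodendrocyte progenitor markers to 2172 and 533. The median log2 intensity of the transit amplifying markers, which leans less on Sox4, was 7.28 and 8.39. In SEZ_GFPprom, replicate 4 had the lowest median of the 39 genes (7.47, against 8.13 to 8.38). How cell makeup and the replication genes were linked in these arrays was not tested.

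**Figure D5:**
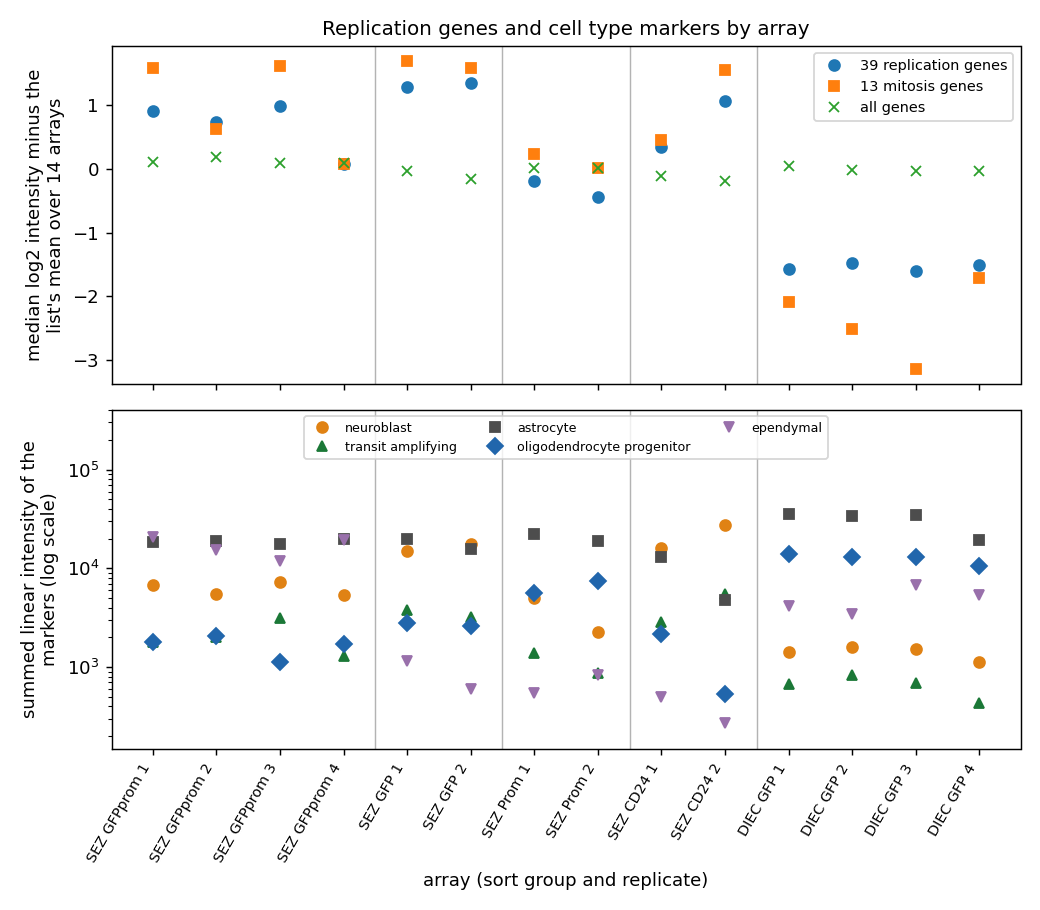
Replication genes and cell type markers on each of the 14 arrays. Top: the median log2 intensity of the 39 replication genes, 13 mitosis genes and all genes, each minus its own mean over the arrays. Bottom: summed linear intensity of 5 marker lists on a log axis. The replication and mitosis genes are lowest on the DIEC_GFP arrays and higher in SEZ_CD24 replicate 2 than in replicate 1, while the all-gene median stays within a narrow band.

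Of 40 other genes of the replication machinery, 18 passed the F test, against 25.8% of all genes. Relative to DIEC_GFP, 20 were higher and 0 lower in SEZ_GFP (5.61% and 7.05% of all genes), 17 higher and 1 lower in SEZ_GFPprom (10.1% and 7.78%), and 8 higher and 1 lower in SEZ_CD24 (6.9% and 9.74%). In SEZ_Prom 1 of the 40 was higher, which is below the share of all genes (3.35%). The smallest F test p values were those of Topbp1, Dctpp1, Nasp, Rnaseh2a and Rpa1. Topbp1, which brings Cdc45 to origins, rose by 2.14 in SEZ_GFP and by 0.81 in SEZ_GFPprom. Dctpp1, which breaks down modified deoxycytidine triphosphate, was the 1 gene higher in SEZ_Prom (by 1.38, adjusted p = 0.025) and rose by 2.23 in SEZ_GFPprom. Nasp, a histone chaperone, rose by 2.40 in SEZ_GFP and 2.08 in SEZ_CD24, and Rnaseh2a, a subunit of the nuclease that removes ribonucleotides from DNA, by 2.20 in SEZ_GFP. Against this direction ran Rpa1, the large subunit of RPA, which was lower in SEZ_CD24 by a difference of -0.81 (10.28 and 10.41 against 10.94 to 11.40 in DIEC_GFP, adjusted p = 0.0131), and Orc4, lower in SEZ_GFPprom by a difference of -1.90 (3.91 to 5.98 against 6.69 to 8.07, adjusted p = 0.0127). Compared with SEZ_CD24, SEZ_GFPprom was higher for Rpa1 (by 1.13), Rnaseh2c (1.82), Dctpp1 (1.38) and Tipin (1.11). Their limma adjusted p was 0.00311, 0.00897, 0.0157 and 0.0388, and 13.7% of all genes were called in either direction.

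Of 12 E2F and pocket protein genes, 4 passed the F test, a share near that of all genes (25.8%). E2f7 and E2f8, repressors made in S phase, rose by 4.00 and 2.30 in SEZ_GFP, and Rbl1, the pocket protein p107, by 3.09. E2f2, an activator, had log2 intensities of 6.17, 5.21, 5.43 and 6.32 in DIEC_GFP, 6.11, 7.01, 8.48 and 6.41 in SEZ_GFPprom, 7.80 and 8.32 in SEZ_GFP, 7.46 and 6.82 in SEZ_Prom and 10.34 and 9.00 in SEZ_CD24. Both SEZ_CD24 arrays were above all others, replicate 1 the more so. E2f2 was 3.89 higher in SEZ_CD24 than in DIEC_GFP (adjusted p = 0.00117) and 2.28 higher in SEZ_GFP (adjusted p = 0.0292). E2f3, E2f4, E2f5, E2f6, Rb1, Rbl2, Tfdp1 and Tfdp2 did not pass the F test. Of 5 genes that set deoxynucleotide levels outside S phase, only Dck, deoxycytidine kinase, passed the F test, with rises of 2.95 in SEZ_GFP, 2.29 in SEZ_CD24 and 1.70 in SEZ_GFPprom, and Rrm2b, Samhd1, Dguok and Tk2 did not. This share too is near that of all genes. Among them Samhd1, which breaks down deoxynucleotides, was lower in SEZ_GFPprom by a difference of -1.60 (adjusted p = 0.0409).

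Mitosis genes, measured for comparison, differed between the same groups: 13 of 13 passed the F test (25.8% of all genes), and all 13 were higher than in DIEC_GFP in SEZ_GFP, SEZ_GFPprom and SEZ_CD24 (5.61%, 10.1% and 6.9% of all genes), and 7 in SEZ_Prom (3.35%). The proliferation marker Mki67 rose by 5.97 in SEZ_GFP (adjusted p = 0.000207), 5.46 in SEZ_CD24, 5.21 in SEZ_GFPprom and 3.14 in SEZ_Prom (adjusted p = 0.0135). Top2a, the topoisomerase that untangles chromosomes, rose by 5.43, 4.70, 4.56 and 3.05 in the same order.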

How the data were processed

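Sorted cells' RNA was amplified in 2 rounds, per the labels' protocols, and read on Affymetrix mouse arrays. The deposited values are linear intensities in whole numbers, made with RMA per the submitters' processing notes, with no version given. At 45.1% of ranks every array held the same value. The plan assumed log2 values, so log2 of the deposited intensity was taken without a pseudocount. An intensity of 10 or less was held by 25.4% to 25.7% of probe sets, where differences depend on background. Of 45101 probe sets, 34945 had 1 gene symbol in the platform annotation, and the brightest per gene stood for 18193 genes.

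All groups were fitted together with limma 3.58.1 (R 4.3.3, lmFit and eBayes, no covariate; degrees of freedom 9 residual, 2.627 prior), tested by a moderated F test and 10 two-sided comparisons, with Benjamini-Hochberg adjustment over all genes and a threshold of 0.05. The fit was tested on simulated data. Intervals are 95%, differences are the first group minus the second, and precision is limited by the number of arrays. Scan dates and batches are not given in the sources used here.

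The genes and lists were chosen with earlier results of these data known. Values on every array are given for the 2 genes of each role with the smallest F test p, those not passing it, E2f1 and those whose highest group was not SEZ_GFP. Of other replication genes, those named are the 5 with the smallest F test p, those lower than in DIEC_GFP and those passing between SEZ_GFPprom and SEZ_CD24. Mki67 and Top2a are named of the mitosis list. Alternatives were cyclic loess, averaging probe sets per gene, leaving out the dimmer 50% of genes, no probe sets of shared sequence, a floor of 10, a replicate block, array weights, the 3' to 5' ratio of control transcripts as a covariate, only the groups compared, and each array left out.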

Additional observations from a re-analysis of the deposited data

Results flagged for a closer look

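In groups of 4 arrays, 5 of 78 sets of values of the 39 genes held an array far from the other 3 by Dixon's test at 95%, and chance alone gives about 1 in 20. In SEZ_GFPprom replicate 4, Mcm6 read 8.26 on the log2 scale against 9.02 to 9.13 on the other arrays of that sort, and Prim1 read 8.23 against 9.23 to 9.39. In SEZ_GFPprom replicate 3, Pole read 8.83 against 7.34 to 7.52. In DIEC_GFP replicate 3, Cdc7 read 3.91 against 5.55 to 5.81, and in DIEC_GFP replicate 2, Prim1 read 6.55 against 7.91 to 8.18. Both low values of SEZ_GFPprom replicate 4 fall on the array with the lowest median of the 39 genes in that sort.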

How the results depend on the processing

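Where leaving out an array leaves a group of 1, that array is assumed to vary like the other groups. The count of genes passing the F test moved between 24 and 35 with arrays left out in turn, from 30. Against DIEC_GFP it ranged from 24 to 29 in SEZ_GFPprom, 20 to 37 in SEZ_GFP, 2 to 6 in SEZ_Prom and 9 to 31 in SEZ_CD24. SEZ_GFPprom ranged from 0 to 1 against SEZ_GFP, 0 to 9 against SEZ_Prom and 0 to 2 against SEZ_CD24, SEZ_GFP from 1 to 19 against SEZ_Prom and 0 to 3 against SEZ_CD24, and SEZ_Prom from 0 to 4 against SEZ_CD24. With the replicate block, 3 genes passed for SEZ_Prom against DIEC_GFP, 3 for SEZ_GFPprom against SEZ_Prom and 1 for SEZ_Prom against SEZ_CD24. Replicate numbers gave no pairing: deviations of same-numbered arrays correlated at -0.19 to 0.13, and 2 of 14 arrays correlated best with their own number. With the 3' to 5' covariate the counts against DIEC_GFP were 22 in SEZ_GFPprom, 26 in SEZ_GFP and 3 in SEZ_Prom, and between SEZ sorts 1 for SEZ_GFPprom against SEZ_GFP and 0 for SEZ_Prom against SEZ_CD24. In fits of only the groups compared they were 2 for SEZ_Prom and 19 for SEZ_CD24 against DIEC_GFP, 11 for SEZ_GFP against SEZ_Prom and 0 for SEZ_Prom against SEZ_CD24. Averaging probe sets per gene they were 1 for SEZ_GFPprom against SEZ_GFP, 4 against SEZ_Prom and 1 against SEZ_CD24, 1 for SEZ_GFP against SEZ_CD24 and 0 for SEZ_Prom against SEZ_CD24. Without probe sets of shared sequence they were 3 for SEZ_GFPprom and 10 for SEZ_GFP against SEZ_Prom, and 1 for SEZ_Prom against SEZ_CD24. In that setting Mcm7 turned to -0.31 in SEZ_GFPprom against SEZ_Prom, because another probe set stands for it. With array weights they were 2 and 11 for SEZ_GFPprom against SEZ_GFP and SEZ_Prom, and 2 for SEZ_GFP against SEZ_CD24. A floor of 10 gave 11 for SEZ_GFP against SEZ_Prom, and leaving out the dimmer 50% of genes gave 1 for SEZ_GFP against SEZ_CD24. The cause of these moves was not tested beyond what each setting changes. Calls against DIEC_GFP held under every setting run for 18 of 28 genes in SEZ_GFPprom, 19 of 34 in SEZ_GFP, 2 of 5 in SEZ_Prom and 8 of 31 in SEZ_CD24, and for 0 between SEZ sorts.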
